A study of Mus musculus with 16 samples.

Results

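Chronic UVB was compared with no UVB in the dorsal skin of wild-type mice, on 4 single-colour miRNA arrays from irradiated animals and 4 from unexposed ones. The members are the mouse miRNAs that the scanner software detected on all 4 arrays of either group, and 206 of the 567 mouse miRNAs on the array met this. All 8 arrays detected 176 of them, whereas 23 were detected in full only without UVB and 7 only after it. Both groups were female hairless albino Ppard+/+ mice (WT) on the mixed SKH1-C57/Bl6-SV129 background, and so carried the intact gene for the nuclear receptor PPARβ/δ. Their age is given as 8 to 12 weeks without a statement of whether this was at the first exposure. The irradiated group (WT UV) received 70 mJ/cm2 of UVB 3 times a week for 12 weeks, and its skin was free of lesions. The unexposed group (WT no UV) was age-matched and sham-manipulated. The array series also holds Ppard-/- (KO) mice, bred as littermates of Ppard+/+ mice, under the same 2 conditions on 4 arrays each, and these entered the same fit.

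Whole skin was used, with its epidermis, dermis, vessels, blood cells and the muscle beneath. A lower level of a miRNA in such bulk tissue can stand for fewer cells of a type or for less of the miRNA per cell, and these cannot be told apart. All irradiated arrays lay on 1 slide and all unexposed arrays on another, so that each difference given here between UV and no UV is at the same time a difference between slides, and the pair cannot be told apart. On the irradiated slide the local background of the WT arrays was 123.5 ± 3.8 intensity units (SD, n = 4) against 70.5 ± 7.6 on the other, and the SD of the negative controls was 10.3 against 5.26. Detected miRNAs numbered between 195 and 206 on the WT UV arrays and between 216 and 246 on the WT no UV arrays, so the groups did not overlap (exact two-sided permutation test, p = 0.0286, the smallest that 4 against 4 arrays can give, and 0.0571 adjusted over the 2 array-wide measures). The total signal per array, the other measure, ranged from 223198 to 313107 and from 170979 to 265981 (exact p = 0.143). Across miRNAs, the arrays of WT UV correlated with each other at r = 0.992 to 0.996, those of WT no UV at 0.976 to 0.991, and arrays of different groups at 0.968 to 0.986.

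MicroRNAs are short RNAs cut from the arms of a hairpin precursor. Loaded into an Argonaute protein, a miRNA pairs with messenger RNAs mainly through its seed, so that miRNAs with the same seed share many predicted targets. In skin, keratinocytes are rich in miR-203, miR-205 and the miR-200 family, the miR-34 family is under the control of p53, the transcription factor that UV-damaged keratinocytes stabilise, and blood cells, vessels, fibroblasts and muscle bring miRNAs of their own.

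The mature sequences on which the results turn are shown by family, 5′ to 3′, with the seed (bases 2 to 8) in capitals and the other bases in lower case, as RefSeq lists them for GRCm38.p6. They are shown because 3 seed families were called in full, and the capitals show which members share one. In the miR-34 family the seed is common to the member that rose most and to one that did not pass the test, and miR-34c belongs to it by name.
miR-34b-5p: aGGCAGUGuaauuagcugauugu
miR-34a: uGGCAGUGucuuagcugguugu
In the miR-200 family 1 base of the seed divides the members into a pair of groups.
miR-200b: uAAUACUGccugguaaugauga
miR-200c: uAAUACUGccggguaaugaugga
miR-429: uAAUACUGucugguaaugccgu
miR-141: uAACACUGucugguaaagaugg
miR-200a: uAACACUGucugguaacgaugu
The family of miR-130 and miR-301 shared 1 seed, while the 3 miRNAs of the miR-183 cluster, which are cut from 1 transcript, have similar seeds that are not the same.
miR-130a: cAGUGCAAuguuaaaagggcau
miR-130b: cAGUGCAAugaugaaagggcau
miR-301a: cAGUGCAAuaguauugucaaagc
miR-183: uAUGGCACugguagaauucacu
miR-96: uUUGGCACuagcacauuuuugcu
miR-182: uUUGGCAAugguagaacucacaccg
Both strands of the miR-31 hairpin are shown since they were measured apart.
miR-31: aGGCAAGAugcuggcauagcug
miR-31*: uGCUAUGCcaacauauugccauc
Among the miRNAs that fell, miR-221 and miR-222 share their seed, and miR-342-3p and miR-146a are miRNAs of blood cells.
miR-221: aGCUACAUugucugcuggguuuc
miR-222: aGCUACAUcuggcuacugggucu
miR-342-3p: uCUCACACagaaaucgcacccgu
miR-146a: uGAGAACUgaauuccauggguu
Next come miR-126-3p and 3 imprinted miRNAs. For these the main fit called a difference between the UV effects in WT and KO skin, which was not called with the slide row as a covariate. Last come the pair miR-103 and miR-107, which differ at position 22, counted from the 5′ end (G22C).
miR-126-3p: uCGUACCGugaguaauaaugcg
miR-379: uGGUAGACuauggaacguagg
miR-136: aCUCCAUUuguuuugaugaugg
miR-127: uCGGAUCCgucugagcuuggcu
miR-103: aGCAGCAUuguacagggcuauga
miR-107: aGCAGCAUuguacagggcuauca

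Levels are log2 of the quantile-normalized total gene signal. Lower values were raised to a floor of 4.28 on that scale, which is the 5th percentile of detected normalized signals (median of 16 arrays), so that the difference of a dim miRNA is understated. A group at the floor on all of its arrays has an SD of 0, as miR-136 and miR-300 had without UVB in WT. The standard error and p of such a miRNA can then be understated too. Differences are UV minus no UV on the same scale with their standard error, from 1 limma fit over the 16 arrays, and a miRNA was called when its p, adjusted by the Benjamini-Hochberg method over the 228 miRNAs tested, was under 0.05. Of the 206 members, 35 were called, 21 higher and 14 lower after UVB. Over all 228 miRNAs tested the share called was 16.2%, with 9.21% higher and 7.02% lower. A further 2 called features were viral and are no members. The median difference over the members was 0.00, with a 5th percentile of -0.67 and a 95th of 0.78. Only 8 called members differed at least 2-fold, and 17 differed by less than 1.5-fold. Without overlap between the 4 values of one group and the 4 of the other were 47 members, 29 of them called, and over all miRNAs tested the share without overlap was 21.5%. Scaling each array by its 75th percentile over the miRNAs detected on all arrays shifted the median of all tested miRNAs by -0.10 and turned the split to 14 higher and 25 lower, and with no normalization, which shifted it by 0.21, the split was 35 and 5. With the replicate number as a block in the 16 arrays 38 were called, but in the 8 WT arrays alone the block left 1 call, miR-34c (adjusted p = 0.0477).

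**Figure D1:**
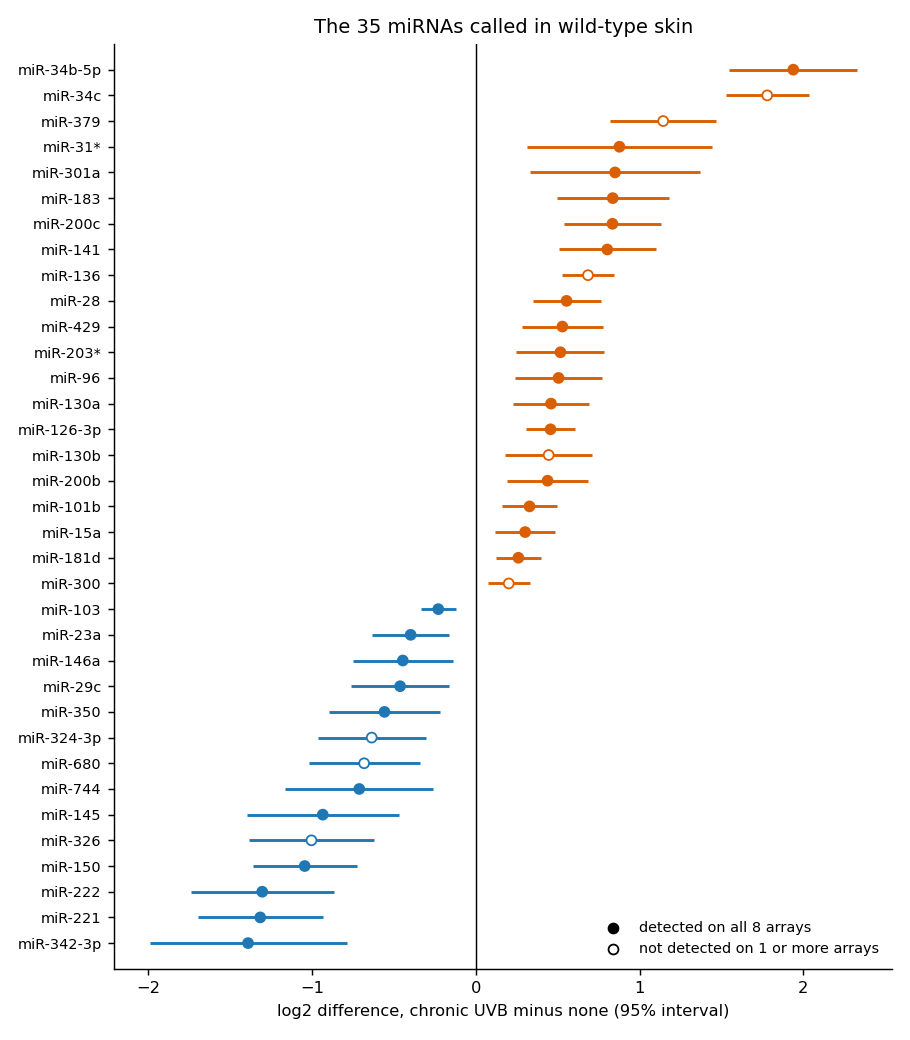
The log2 difference of each of the 35 called miRNAs, UVB minus none in WT skin, with its 95% interval from the limma fit (orange higher, blue lower; open circles for miRNAs that 1 or more of the 8 arrays did not detect). The differences run from 1.94 for miR-34b-5p to -1.39 for miR-342-3p, and the 2 miR-34 miRNAs stand apart at the top.

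The labelled tissue was checked first. The miRNA with the highest signal was miR-21, a miRNA of proliferating and inflamed epithelium, and miR-203 and miR-205 of keratinocytes ranked 5th and 7th among the 567 mouse miRNAs without UVB. None of the 9 miRNAs listed for other tissues (brain, retina and pancreas among them) was detected on any of the 8 arrays. MiR-21 had the value 14.59 on 7 of the 8 arrays, since the brightest miRNA of an array always receives the same normalized value, and 13.88 on the WT no UV array of replicate 2. The normalization therefore could not show a rise of miR-21 over those unexposed arrays already at 14.59, and the WT difference was 0.18 ± 0.18 (adjusted p = 0.545). Alternatives other than thresholds and left-out arrays did not call it in WT either (0 of 15), with differences from 0.18 to 0.58. In KO skin, set to the same quantiles, miR-21 differed by 0.68 and was called (limma, adjusted p = 0.0173). The other strand, miR-21*, did not pass the floor on any of the 8 arrays, with signals from 5.80 to 13.6 units without UVB and from 6.94 to 10.6 after it, and is no member.

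The 2 largest rises were in the miR-34 family. MiR-34b-5p and miR-34c lie side by side on chromosome 9 (mm9, chr9:50911181-50911736) and come from 1 precursor transcript, while miR-34a has a gene of its own. MiR-34b-5p was at 5.22, 4.57, 4.28 and 4.79 on the 4 unexposed arrays and at 6.78, 6.53, 6.73 and 6.58 on the irradiated ones. MiR-34c was at 4.66 on 1 unexposed array and at the floor on the other 3, and between 6.05 and 6.33 after UVB. It was detected in full after UVB alone, which favoured a rise, whereas all 8 arrays detected miR-34b-5p. Every irradiated array thus lay above every unexposed one for both. The difference of miR-34b-5p was 1.94 ± 0.18, or 3.83-fold (adjusted p = 1.0e-05), and that of miR-34c was 1.78 ± 0.12, or 3.43-fold on the floored scale (adjusted p = 3.2e-07). As miR-34c was at the floor on all KO no UV arrays as well, its standard error and p can be understated. MiR-34a, which shares their seed and was far brighter, was at 10.34 ± 0.26 (SD, n = 4) without UVB and 10.47 ± 0.10 after it, a difference of 0.13 ± 0.14 (adjusted p = 0.594). MiR-192, another miRNA with p53 sites in its promoter, differed by 0.46 ± 0.20 and did not pass (adjusted p = 0.127), although its groups did not overlap. Of the 8 array miRNAs of this p53 list 4 were members and 2 were called, both higher, with a median of 1.12 beside 0.00 over all tested miRNAs. As miR-34c entered through the irradiated group alone, the choice of members favoured this count and median. The summed signal of the list was 1140 to 1737 units without UVB and 1558 to 1743 after it, with overlap. Of this, miR-34a, which was not called, made up 1036 to 1611 units without UVB and 1316 to 1516 after it. The share called higher over all tested was 9.21%. The other strands, miR-34b-3p and miR-34c*, were detected on none of the 8 arrays.

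Epithelial miRNAs were called higher in 5 of 9 members and lower in none, beside 9.21% higher and 7.02% lower over all miRNAs tested. The miR-200 family, which holds epithelial cells in their state by repressing the ZEB transcription factors, comes from 2 clusters, and in each of them 2 members were called. On chromosome 6 (chr6:124667935-124668357), miR-200c went from 9.98, 9.95, 10.22 and 10.09 to 11.04, 10.53, 11.04 and 10.97, a difference of 0.83 ± 0.14 (adjusted p = 0.000988). Its neighbour miR-141 went from 8.91, 9.32, 8.67 and 9.39 to 9.91, 9.72, 9.88 and 9.98, a difference of 0.80 ± 0.14 (adjusted p = 0.0012). The groups did not overlap for either, and the second WT UV array was the lowest irradiated one for both. On chromosome 4 (chr4:155428025-155429810), miR-429 rose by 0.53 ± 0.11 from 9.32, 9.43, 9.72 and 9.54 to 10.14, 9.91, 9.98 and 10.09 (adjusted p = 0.00683), and miR-200b rose by 0.44 ± 0.11 (adjusted p = 0.0175). MiR-200a, between them, differed by 0.30 ± 0.13 and was not called (adjusted p = 0.123). Thus the 3 members with the seed AAUACUG were all called, at 0.44 to 0.83, and of the pair with the seed AACACUG only miR-141. MiR-203, which halts the proliferation of epidermal progenitors as they differentiate, was at 13.35 ± 0.13 and 13.65 ± 0.15 and was not called (adjusted p = 0.268), whereas its dim strand miR-203* rose by 0.52 ± 0.12 (adjusted p = 0.0109). MiR-205, of basal keratinocytes, was at 13.18 ± 0.09 and 13.22 ± 0.15. The summed signal of the whole epithelial list was 21708 to 25676 units without UVB and 26320 to 32028 after it. Of this, miR-203, which was not called, made up 9230 to 11112 units without UVB and 12236 to 15061 after it.

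MiR-31, which is high in psoriatic and wounded epidermis, was read on both strands of its hairpin on chromosome 4. MiR-31* was at 7.35, 6.17, 6.05 and 6.40 without UVB and at 7.45, 7.35, 7.27 and 7.41 after it. MiR-31 was at 10.02, 9.01, 8.72 and 8.91 and then at 9.95, 9.88, 9.77 and 9.91. On both strands the first unexposed array reached the irradiated level and the other 3 lay well under it, so that the groups overlapped. The difference was 0.88 ± 0.26 for miR-31* (adjusted p = 0.0335), lost with the replicate number as a block (adjusted p = 0.0601), and 0.71 ± 0.24 for miR-31 (adjusted p = 0.0558). Without the first unexposed array the difference of miR-31* was 1.16, its highest value with 1 array left out, and with each of 7 of the 8 arrays left out in turn it was not called.

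The miR-183 cluster on chromosome 6 (chr6:30115962-30119729), known from sensory cells and from tumours, showed positive differences in all of its 3 members. MiR-183 rose by 0.84 ± 0.16 (adjusted p = 0.00245), from 5.94, 6.15, 6.53 and 5.99 to 6.96, 6.93, 6.93 and 7.13. MiR-96 rose by 0.51 ± 0.12 (adjusted p = 0.0109), and miR-182 was at 5.86 ± 0.20 and 6.19 ± 0.17 without passing the test (adjusted p = 0.173).

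All 3 members of the family of miR-130 and miR-301, of which miR-130a is known from angiogenic endothelium, were called higher, and they come from 3 chromosomes. Over all miRNAs tested 9.21% were called higher. MiR-130a rose by 0.46 ± 0.11 (adjusted p = 0.00963), miR-130b, detected in full after UVB alone, which favoured a rise, by 0.44 ± 0.12 (adjusted p = 0.0251) and miR-301a by 0.85 ± 0.24 (adjusted p = 0.027). MiR-301a was at 4.95, 5.46, 4.28 and 5.51 without UVB and at 5.70, 5.99, 5.88 and 6.02 after it, and with each of 4 of the 8 arrays left out it was no longer called. In the clusters of the miR-17 type, which drive proliferation, 9 of 12 members were positive with a median of 0.21, but none was called, the widest being miR-19a at 1.12 ± 0.38 (adjusted p = 0.0606), whose unexposed array of replicate 3 was at 4.69 beside 6.29 to 6.47 on the others. Single rises besides were those of miR-28, by 0.55 ± 0.10 from 5.99, 5.96, 5.99 and 5.66 to 6.40, 6.43, 6.53 and 6.45 (adjusted p = 0.00128), of miR-101b, by 0.33 ± 0.08, of miR-15a, by 0.30 ± 0.09, and of miR-181d, by 0.26 ± 0.06. The 2 probes of miR-181d went opposite ways, at -0.21 and 0.14, when each was scaled by the 75th percentile of its array. With the same scaling the 2 probes were at 0.09 and 0.11 for miR-15a, 0.06 and 0.18 for miR-101b, and 0.38 and 0.47 for miR-28. The size of these rises thus depended on the normalization.

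**Figure D2:**
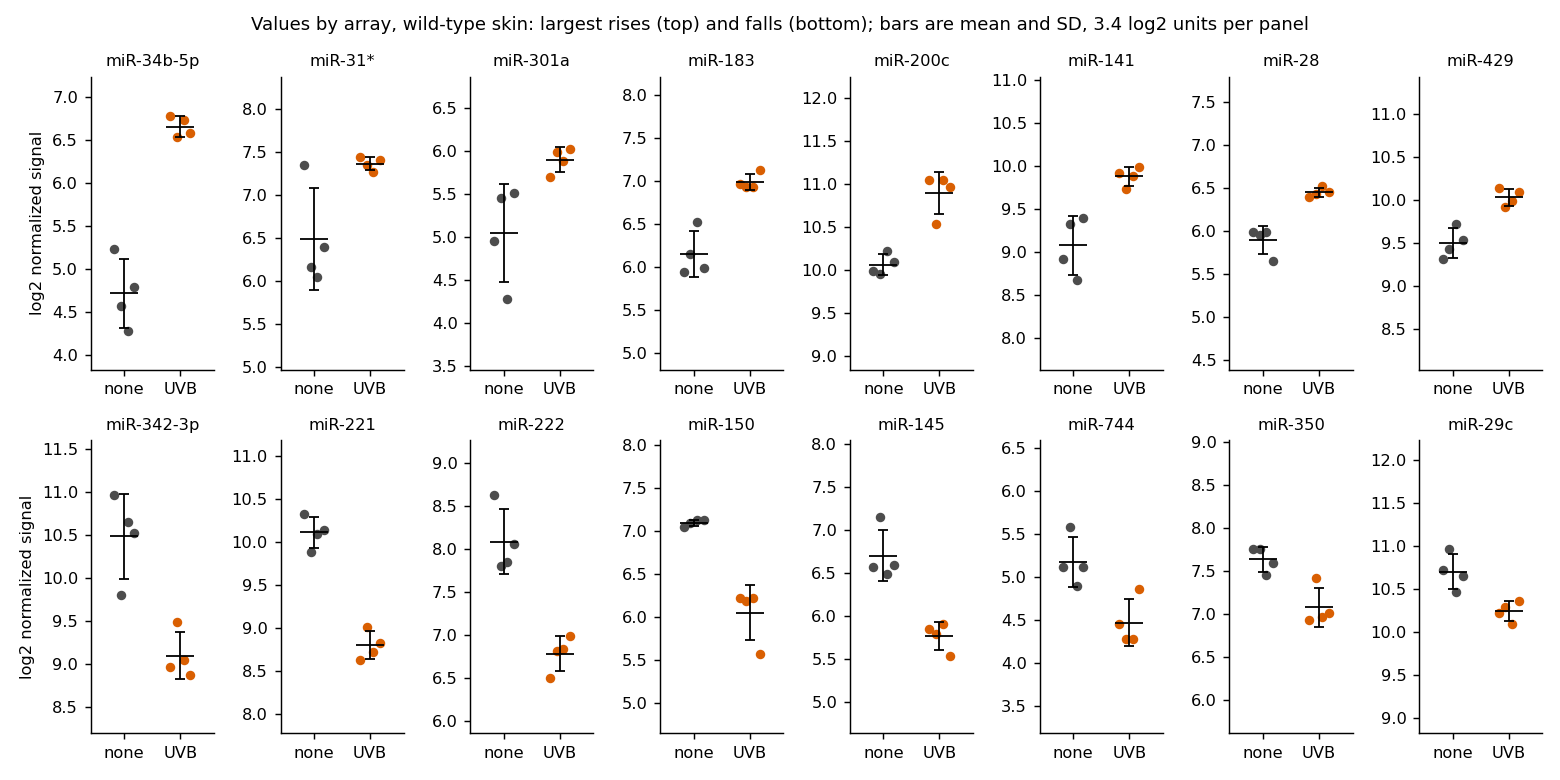
Log2 normalized signal on each of the 4 unexposed (grey) and 4 irradiated (orange) WT arrays for the 8 largest rises (top row) and 8 largest falls (bottom row) among called miRNAs that all 8 arrays detected, with mean and SD (n = 4); each panel spans 3.4 log2 units. The groups are apart in every panel but that of miR-31*, where the first unexposed array sits at 7.35 among the irradiated ones.

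MiR-342-3p fell most, followed by miR-221 and miR-222. MiR-221 and miR-222 are neighbours on chromosome X (chrX:18723433-18724042) and repress the cell cycle inhibitor p27 and the receptor KIT of mast cells and melanocytes. MiR-221 fell from 10.33, 9.88, 10.09 and 10.14 to 8.62, 9.01, 8.72 and 8.82. MiR-222 fell from 8.62, 7.80, 7.85 and 8.06 to 6.50, 6.81, 6.83 and 6.98. The groups were apart for both, and for miR-221 the gap between them was wider than the range within either. The differences were -1.32 ± 0.18 (adjusted p = 0.00023) and -1.30 ± 0.20 (adjusted p = 0.000599), that is 2.49-fold and 2.47-fold lower, and the summed signal of the pair was 1168 to 1678 units without UVB and 485 to 626 after it.

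Of the 9 members of the leukocyte list 3 were called, all lower, beside 7.02% called lower over all miRNAs tested. MiR-342-3p, a lymphoid and myeloid miRNA within the span of Evl on chromosome 12, went from 10.97, 9.80, 10.65 and 10.53 to 8.97, 9.49, 9.05 and 8.88, a difference of -1.39 ± 0.28 or 2.62-fold lower (adjusted p = 0.00383). MiR-150, which is high in mature lymphocytes, went from 7.05, 7.09, 7.13 and 7.13 to 6.23, 6.19, 6.23 and 5.58, a difference of -1.05 ± 0.15 (adjusted p = 0.000329). MiR-146a, a brake on NF-κB signalling, went from 10.09, 9.60, 9.65 and 9.98 to 9.36, 9.36, 9.39 and 9.43, a difference of -0.45 ± 0.14 (adjusted p = 0.0468) that was lost with the replicate number as a block (adjusted p = 0.0741). The groups did not overlap for any of them. The other 6 were not called. Among them miR-142-3p of all blood cells and miR-223 of myeloid cells were at -0.15 each, miR-155 of activated lymphocytes was at 0.09 (KO 0.65, adjusted p = 0.0319), and miR-146b, a relative of miR-146a, was at 0.42 (adjusted p = 0.0853, and 0.71 in KO with adjusted p = 0.0092). Thus the list held differences in both directions, and the median over the list was -0.15. Its summed signal was 5837 to 7564 units without UVB and 4826 to 5577 after it. Of its 11 array miRNAs 2 were detected on none of the 8 arrays, both of them dim strands.

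Vessel, muscle and fibroblast miRNAs did not go one way. MiR-145, of smooth muscle, fell from 6.58, 7.15, 6.50 and 6.60 to 5.85, 5.79, 5.91 and 5.54, a difference of -0.93 ± 0.21 (adjusted p = 0.00963). MiR-143, of the same precursor on chromosome 18 (chr18:61807520-61808868), was at 9.11 ± 0.41 and 9.13 ± 0.07 (adjusted p = 0.992). MiR-126-3p, of endothelium and within the span of Egfl7, rose from 10.79, 10.89, 10.61 and 10.79 to 11.33, 11.20, 11.27 and 11.10. The difference was 0.46 ± 0.07 (adjusted p = 0.000599). With percentile scaling over the miRNAs detected on all arrays it was 0.19 and was not called (limma, adjusted p = 0.155). Of 15 alternatives other than thresholds, left-out arrays and the block within the WT arrays, 14 called miR-126-3p. The size of its rise thus depended on the normalization. Its other strand miR-126-5p was at 6.11 ± 0.61 and 5.87 ± 0.17. In the fibroblast and matrix list 1 of 9 members was called, beside 16.2% called over all miRNAs tested. This was miR-29c, which with miR-29a and miR-29b represses collagen genes. It fell by 0.46 on the log2 scale, from 10.72, 10.97, 10.47 and 10.65 to 10.22, 10.29, 10.09 and 10.36 (adjusted p = 0.0335), and the differences of miR-29a and miR-29b were -0.16 and -0.14. None of the 5 skeletal muscle members was called, with differences from -0.29 to 0.22, and their summed signal was 20586 to 41435 units without UVB and 22101 to 26221 after it. Both erythroid members were uncalled as well, at -0.42 for miR-486 and 0.33 for miR-451. What part the shares of these cell types had in the other differences was not tested.

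**Figure D3:**
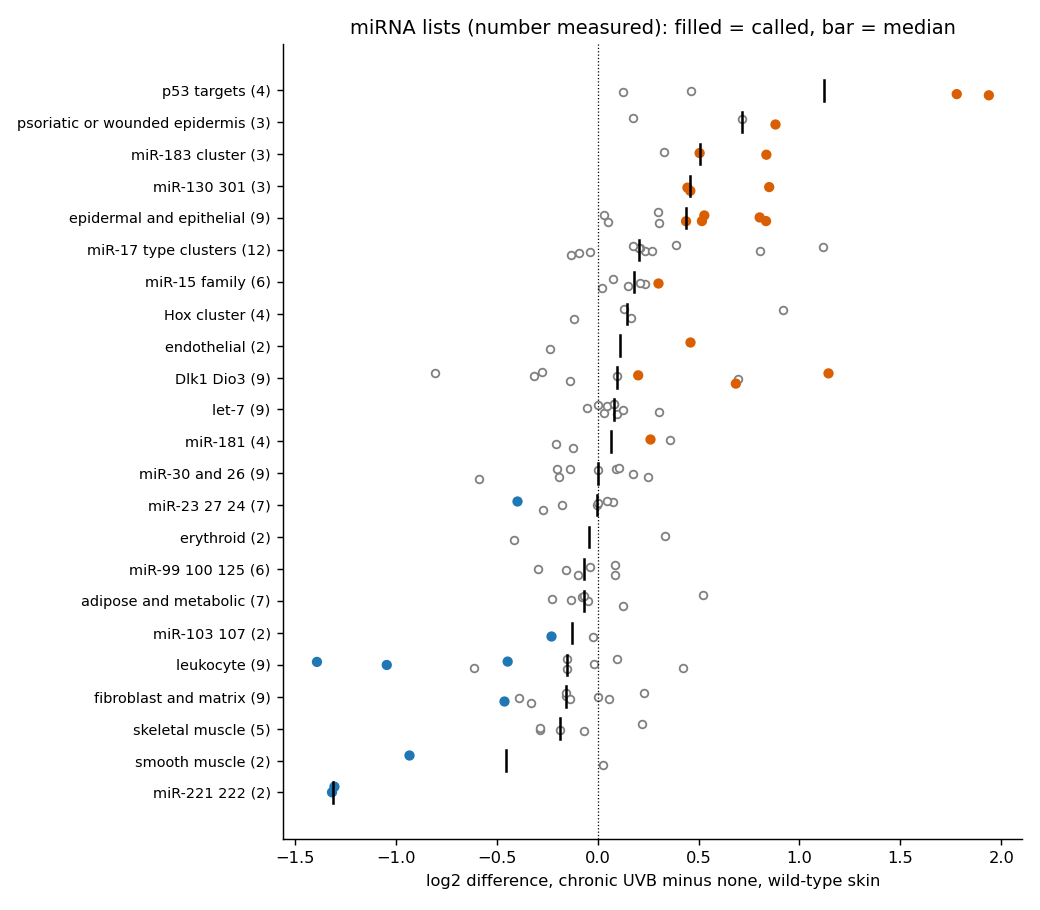
Log2 differences, UVB minus none in WT skin, of the members of each miRNA list with 2 or more members (number in brackets; filled circles are called, bars are medians). Medians run from 1.12 for the p53 list to -1.31 for miR-221 and miR-222, the median of the let-7 family is 0.08, and no list holds calls in both directions.

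The other called falls were small or dim. MiR-23a, ranked 3rd in signal without UVB and found in most cell types, fell by 0.40 from 13.88, 13.58, 13.88 and 13.58 to 13.17, 13.36, 13.36 and 13.44 (adjusted p = 0.0234). MiR-103, which with miR-107 is known from insulin signalling, fell by 0.23 from 10.04, 9.98, 9.98 and 9.85 to 9.72, 9.80, 9.69 and 9.72 (adjusted p = 0.00683). MiR-107, which differs from it in 1 base of 23, was at 10.23 ± 0.16 and 10.20 ± 0.08, and hybridisation may not hold the pair fully apart. With no normalization the signs of miR-103 and miR-23a turned, to 0.17 and 0.02. MiR-350 fell by 0.56 (from 7.75, 7.75, 7.45 and 7.59 to 6.93, 7.41, 6.96 and 7.01) and miR-744 by 0.71 (from 5.12, 5.58, 4.89 and 5.12 to 4.44, 4.28, 4.28 and 4.86). MiR-324-3p, miR-680 and miR-326 were detected on all 4 unexposed arrays and on 1, 3 and 1 of the 4 irradiated ones, which favoured a fall, and their differences, in part against the floor, were 1.55-fold, 1.6-fold and 2.01-fold lower. MiR-324-5p, the other strand of the first, was at 6.69 ± 0.20 and 6.77 ± 0.07. As to base composition, the 20 called higher for which a sequence was used had a median G and C share of 40.9% (36.4% to 50%), and the 12 called lower 50% (36.4% to 70%). No sequence was used for miR-34c and miR-150, nor for miR-145, since entries on chromosome 18 were left out. The part of base composition in the differences was not tested.

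Detection near the floor set part of the counts. Of the 23 members detected in full only without UVB 3 were called, and of the 7 detected in full only after UVB 5 were called. Entering through 1 group alone favoured a higher level there, so nothing is read from these counts. All of the 7 were higher after UVB, and of the 23, 16 were lower after UVB, 4 were higher and 3 were at the floor on all 8 arrays. The 23 had a median level of 4.64 without UVB, close to the floor, against 8.24 for the 176. The irradiated arrays never detected 6 of the 23, none of which was called (limma, adjusted p of 0.104 or more). For a lower bound, each irradiated array was given its lowest detected signal or the miRNA's own, whichever was higher. The unexposed mean was 1.42-fold, 1.5-fold, 1.76-fold and 1.81-fold the mean of these for miR-135a*, miR-770-3p, miR-467b and miR-712. For miR-532-3p and miR-342-5p it was 0.904-fold and 0.988-fold. All 6 entered through the unexposed group, so nothing is read from the bounds. Background and detection moved with the slide as given above, and their part in these losses was not tested.

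Arrays left out one at a time kept 24 of the 35 calls in all 8 cases. The other 11 were lost with 1 or more arrays left out, and their highest adjusted p was 0.105 for miR-31*, 0.0746 for miR-301a, 0.0865 for miR-130b, 0.0598 for miR-200b, 0.0804 for miR-15a, 0.207 for miR-300, 0.0737 for miR-23a and miR-350, 0.108 for miR-146a, 0.0938 for miR-29c and 0.0908 for miR-744.

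**Figure D4:**
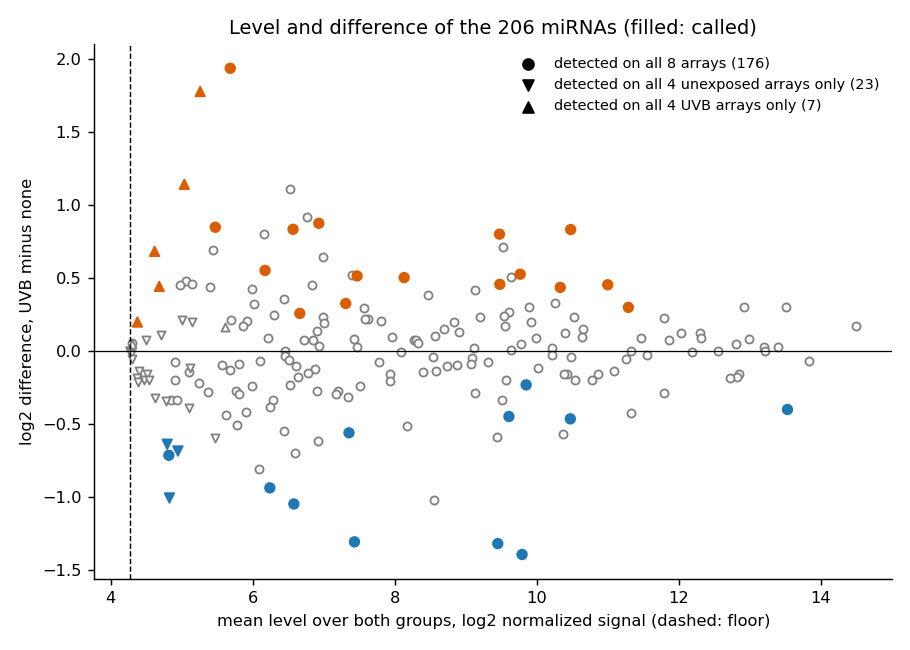
Mean level over both groups (x axis, log2 normalized signal, dashed line at the floor of 4.28) and log2 difference, UVB minus none (y axis), of the 206 members; filled marks are called and the mark shows on which arrays the miRNA was detected. The members detected in full in 1 group alone crowd near the floor, and called miRNAs occur over the range up to miR-23a.

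Strands of 1 hairpin could be set side by side for 23 hairpins with both strands among the members. The differences had 1 sign in 11 of them, and in 3 of the others the dim strand stayed at the floor on all 8 arrays. In 7 of the 23 a strand was called, and in none were both. The closest to both were miR-31, given above, and miR-29c, whose dim strand miR-29c* was at -0.39 ± 0.18 beside -0.46 ± 0.14. The widest contrast was that of miR-342, where miR-342-5p was at the floor on all irradiated arrays, so that its difference has no size.

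Neighbouring hairpins, each within 10000 bases of the next, formed 27 clusters of 2 or more. Those of miR-34b and miR-34c and of miR-221 and miR-222 were called in full. Those of the miR-200 family, of the miR-183 cluster and of miR-23a held called and uncalled members, and no cluster held calls in both directions. In the imprinted Dlk1-Dio3 region of chromosome 12, from which the maternal allele expresses many miRNAs, 9 of 68 array miRNAs were members. Of these, miR-379, miR-136 and miR-300 were called higher, by 1.14 ± 0.15, 0.68 ± 0.07 and 0.20 ± 0.06. All 3 were members through the irradiated group alone, unexposed arrays having detected them on 2, 1 and 2 of 4, so that the choice of members favoured a rise and nothing is read from these calls about the region. MiR-379 was at 4.62 and 4.69 on a pair of unexposed arrays and at the floor on the others, and at 5.75, 5.51, 5.75 and 5.42 after UVB. MiR-136 and miR-300 were at the floor on all unexposed arrays, so that their differences are measured from the floor. With single arrays left out, which also moves the floor, the difference of miR-300 ran from 0.09 to 0.42, the lower values coming with any of the 4 unexposed arrays left out, and it was called in 4 of 8 cases. MiR-127 was at 5.42, 5.37, 4.51 and 5.05 and then at 5.72, 5.66, 6.05 and 5.70, without overlap, and missed the threshold (adjusted p = 0.0536). MiR-487b of the same region was at -0.81 ± 0.28 (adjusted p = 0.0606), and the summed signal of the region was 1198 to 3776 units without UVB and 1769 to 2758 after it.

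The UV difference in KO skin, from other animals on the same 2 slides, was set beside that in WT. In KO the share called over all miRNAs tested was 29.8%. Of the 35 called in WT, 34 had the same sign in KO and 20 were called there, 14 higher and 6 lower. As the 35 were chosen by their WT difference, the sizes in WT and KO are given side by side only. MiR-34b-5p and miR-34c differed by 1.59 and 1.22 in KO, miR-200c by 0.80, miR-183 by 0.77 and miR-145 by -1.66. Both strands of miR-31 were called in KO, miR-31* at 1.45 and miR-31 at 1.30 (limma, adjusted p = 0.00324 and 0.00328). Their differences between the genotypes did not pass (limma, adjusted p = 0.583 and 0.543). MiR-221, miR-222 and miR-342-3p differed by -0.46, -0.48 and -0.29 there and were not called in KO, but the differences between the genotypes, -0.86 ± 0.25, -0.82 ± 0.29 and -1.10 ± 0.39, did not pass (adjusted p = 0.106, 0.201 and 0.221). The difference between the genotypes was called for 3 of the 35, and over all miRNAs tested the share was 2.19%. They were miR-379 (WT 1.14, KO 0.16, adjusted p = 0.0345), miR-136 (0.68 and 0.01, adjusted p = 0.00441) and miR-126-3p (0.46 and 0.01, adjusted p = 0.0345). MiR-379 and miR-136 were members through the WT UV arrays alone, and the KO UV arrays detected neither on any of 4, so that the choice of members favoured a larger WT difference. Among miRNAs detected on all 16 arrays, which include miR-126-3p but neither of these, 0 such differences were called. Only miR-136 kept this call with the replicate number as a block (adjusted p = 0.0184, against 0.0873 for the other two). MiR-127, not called in WT, fell by 0.76 in KO, and its genotype difference was 1.45 ± 0.32 (adjusted p = 0.0345, and 0.0873 with the block).

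**Figure D5:**
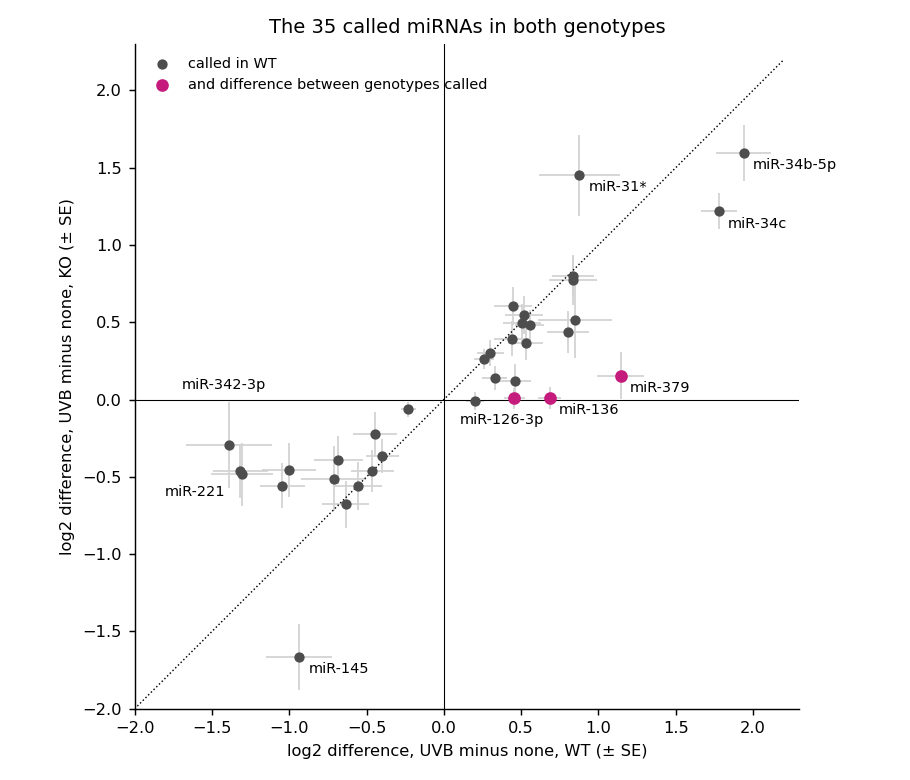
The log2 difference, UVB minus none, in WT (x axis) and KO skin (y axis) of the 35 miRNAs called in WT, each with its SE from the limma fit; the dotted line marks equal differences and pink marks the 3 miRNAs whose difference between genotypes was called. Apart from miR-300, which was at -0.01 in KO, all have 1 sign in both genotypes, and miR-379, miR-136 and miR-126-3p lie near 0 in KO.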

How the data were processed

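MiRNAs were measured in 16 dorsal skin RNA samples, 100 ng each, on Agilent mouse miRNA arrays. Groups and replicate numbers come from the sample titles, and the 4 arrays of a group are 4 animals. The deposited scanner files, made with Agilent Feature Extraction 9.5.3.1, hold total gene signals as intensity values, summed over about 20 spots of 2 to 4 probes after background subtraction, with a detection call. The headers place probes on mm9. Log2 values normalized by the authors (invariant set, then quantiles) come from the deposited series table and were tried as an alternative.

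For the main analysis the signals of the 16 arrays were set to common quantiles (limma 3.58.1, R 4.3.3), floored at 19.4 units and log2-transformed. The 228 miRNAs (3 viral) that were detected throughout 1 or more of the 4 groups were fitted with 4 group means (lmFit, eBayes, 12 residual and 0.80 prior degrees of freedom). Normalized values are ranks on a shared scale, so the brightest miRNAs cannot spread, and the number of arrays limits the precision. The fit was tested on simulated data. Mature sequences were matched by hand-named strand to RefSeq, 32 of 35 called miRNAs having one that is shown or used. Entries on chromosome 18, where miR-143 and miR-145 lie, were left out before the spacing was checked. Among the entries kept, spacing to neighbours agreed within 5 bases in all 16 pairs checked. Alternatives changed normalization, signal, filter, floor, block, arrays and threshold, or left out 1 array. The members, the 24 lists and the rule for named miRNAs (every called member, its other strand, listed miRNAs, miR-21 and miR-103, with array values for the 8 largest rises and falls) were chosen with earlier results of these data known.

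Arrays of WT UV and WT no UV with the same replicate number had correlated deviations from the group means (r = 0.242, 0.132, 0.299 and 0.320 across miRNAs). Pairs with unlike numbers ran from -0.416 to 0.382, and the highest r of all was among these. Whether the numbers pair the arrays is thus not settled. The replicate block was tried as an alternative and was not part of the main fit. The labels do not say what the number stands for.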

Additional observations from a re-analysis of the deposited data

Results flagged for a closer look

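A single array stood far from the other 3 of its group, with a gap to the nearest that passed Dixon's 95% critical value, in 10 of 104 groups of 4 values looked at. That value assumes independent values without ties. Common quantiles gave ties, as in the groups of miR-21, miR-203 and miR-15a below, and the groups share arrays. The count is therefore not set against a rate by chance. Without UVB, miR-19a was at 4.69 on replicate 3 (others 6.29 to 6.47), miR-28 at 5.66 on replicate 4 (5.96 to 5.99), miR-21 at 13.88 on replicate 2 (14.59), and miR-145 at 7.15 on replicate 2 (6.50 to 6.60). After UVB, miR-183 was at 7.13 on replicate 4 (6.93 to 6.96), miR-200c at 10.53 on replicate 2 (10.97 to 11.04), miR-203 at 13.88 on replicate 4 (13.58), miR-15a at 11.27 on replicate 4 (11.50), miR-350 at 7.41 on replicate 2 (6.93 to 7.01) and miR-150 at 5.58 on replicate 4 (6.19 to 6.23). Groups with more than 1 array at the floor, 12 of them, were not looked at. With these arrays left out the calls of miR-183, miR-200c, miR-28, miR-145 and miR-150 held, as they did with any other array left out.

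The UV difference in WT minus that in KO was itself called for miR-379 (0.99), miR-127 (1.45), miR-136 (0.68) and miR-126-3p (0.45). MiR-379 and miR-136 were detected in full by the WT UV arrays alone and by none of the KO UV arrays, so that the choice of members favoured these differences. With 1 of the 8 WT arrays left out in turn, the call held 7 times of 8 for miR-136, 4 times for miR-379, 3 times for miR-126-3p and 2 times for miR-127. With the slide row as a covariate none of the 4 was called (adjusted p = 0.0583 for miR-136 and 0.511 for the others). The irradiated WT and KO arrays lay in different rows of their slide.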

How the results depend on the processing

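All alternatives kept the sign of 33 of the 35 called miRNAs, and 15 of the 35 were called under every alternative in which they were tested, other than the stricter thresholds and the block within the WT arrays, and with every left-out array. The filter of detection on all 16 arrays left out miR-34c, miR-379, miR-136 and miR-326 among these 15. Counts are of called miRNAs, 35 in the main analysis (21 higher, 14 lower, and 3 with a called genotype difference). With 75th percentile scaling over miRNAs detected on all arrays they were 39 (14 higher, 25 lower, 0 genotype differences), and with no normalization 40 (35, 5 and 23). The genotype differences numbered 0 with the invariant set, with normexp, with miRNAs detected on all 16 arrays and with the slide row as covariate, and 1 with the series table (22 lower), with a floor of 1 and with the replicate block. In the 8 WT arrays alone 24 were called (13 higher, 11 lower), and with the replicate block in them 1 (1 higher, 0 lower). The cause of this drop was not tested. Called counts were 51 with the invariant set, 49 with the series table, 47 with a floor of 1 and 25 with the slide row. At the threshold of the methods (1.5-fold and p under 0.001) 14 passed unadjusted (7 and 7) and 8 adjusted (5, 3 and 0 genotype differences). Leaving out single arrays gave 28 to 40 calls (17 to 24 higher, 10 to 16 lower, 1 to 4 genotype differences). The replicate block over 16 arrays changed no WT call other than those of miR-31* (adjusted p = 0.0601) and miR-146a (0.0741) among the 35, and gave 38 calls. The slide as a block cannot be estimated, since each slide held 1 UV state. The difference in detected miRNAs per array, -28.5, ran from -32.3 to -22.3 with single arrays left out, and counting miRNAs over the floor after normalization gave 0, since common quantiles fix that count.

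Signs turned for miR-324-5p (-0.18 and -0.0537 with 75th percentiles over miRNAs detected on all arrays and over all miRNAs, -0.0691 with the invariant set, -0.00566 to 0.13 with single arrays left out), miR-205 (-0.0384 with the former percentile, -0.0140 to 0.0983 with arrays left out), miR-143 (-0.11 with that percentile, -0.0031 with WT quantiles, -0.0035 with processed spots, -0.013 with normexp, -0.00075 with the series table, -0.023 with the slide row, -0.0739 to 0.22 with arrays left out) and miR-107 (0.11 with the percentile over all, 0.10 with the invariant set, 0.37 with none, -0.0833 to 0.0349 with arrays left out). With no normalization they turned for miR-29b (0.0415), miR-103 (0.17), miR-126-5p (0.00089) and miR-23a (0.0182). The cause was not tested. Dim miRNAs near the floor are limited by background, which was higher on the irradiated slide.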
